A study of Mus musculus with 9 samples.

Results

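The Hox cluster genes were followed over 9 mouse arrays that sampled neural crest cells and the tissues they form at 3 ages. Every probe set (a group of array probes for the same transcript) annotated to exactly 1 symbol of the form Hoxa, Hoxb, Hoxc or Hoxd plus a number up to 13 was taken as a member. This gave 33 of the 18193 genes on the array, measured by 48 of 45101 probe sets, out of 39 Hox genes in the RefSeq mouse annotation. Signals of the other Hox genes are not analysed here, and 3 probe sets that carry several symbols, with a Hox cluster name among them, were not taken. Cells were collected by laser capture microdissection in a study of DNA repair genes. The groups were cells from E8.5 embryos at the time the neural tube closes, from E13.5 dorsal root ganglia, and from the adrenal medulla of adults aged 3 months (P90). Each had 3 arrays that the labels call biological replicates. The sample titles call all of them NCCs (neural crest cells). Below, E8.5 embryos, E13.5 ganglia and P90 medullae stand for the cells captured from each. The labels name no strain, mutation or treatment, no number of animals per capture and no axial level of the embryos or ganglia. Stage and tissue change together, so every comparison is between both at once.

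Hox genes encode homeodomain transcription factors that lie in 4 clusters, A on chromosome 6, B on chromosome 11, C on chromosome 15 and D on chromosome 2 in the mouse. Their order in a cluster follows the order in which they are switched on and the level of the body axis where they act: low paralogue numbers work from the hindbrain and neck backwards, high numbers in the lumbar region, tail, limbs and genital tract. Neural crest cells carry a Hox code from the axial level at which they arise, and most crest of the head in front of the hindbrain is Hox-negative.

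Cluster A was covered by 16 probe sets of 9 genes, cluster B by 11 of 9, cluster C by 11 of 7 and cluster D by 10 of 8. Values are signals, the authors' array intensities on a linear scale, and a probe set was tested if at least 3 of 9 arrays gave a signal above 26.1 and it had at least 2 values per stage. Of the 48 probe sets, 33 for 23 genes were tested, against 24012 of the 34945 probe sets with 1 symbol on the whole array. Of the 33, 14 lay above 26.1 on all 9 arrays, and 1, Hoxa4 1427354_at, did so at 1 stage only. Changes are log2 changes of signal plus 16 with their standard errors. A probe set was called where limma's adjusted p (Benjamini-Hochberg over all tested probe sets) was under 0.05, and every p below comes from that fit. With 3 arrays per stage, the number of arrays limits the precision of every value.

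The arrays were not equally alike. Median signals ran between 38.3 and 48.2, but mean signals between 175 (P90 replicate 3) and 328 (E13.5 replicate 1). Log2 signals correlated at 0.874 to 0.985 within a stage and 0.82 to 0.914 between stages. On E13.5 replicate 2 the Actb control read from its 3' end exceeded the one read from its 5' end most (log2 7.0, against 0.851 and 2.87 on the other E13.5 arrays). P90 replicate 1 stood apart in its cell types. Marker sums here and below leave out every probe set with an empty value on any array. Summed over 13 of 19 chromaffin probe sets, the signal of P90 replicate 1 was 13130, against 29940 and 28710 on P90 replicates 2 and 3. Over 15 of 24 mesenchyme probe sets it was 4679, against 1812 and 1092. The number of Hox probe sets above a signal of 26.1 was 31, 30 and 25 in E8.5 embryos, 25, 31 and 30 in E13.5 ganglia, and 26, 22 and 25 in P90 medullae.

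The tissue labels were checked against marker genes. Wnt1, made at the roof of the neural tube, had signals of 433, 423 and 585 in E8.5 embryos, 2.98, 10.7 and 2.42 in E13.5 ganglia, and 5.78, 2.28 and 3.74 in P90 medullae. Isl1, a factor of sensory neurons, had 5141, 3153 and 5244 in E13.5 ganglia and at most 149 in E8.5 embryos. Summed over 17 of 29 sensory neuron probe sets, the signal was 697, 597 and 750 in E8.5 embryos and 7567, 5466 and 7541 in E13.5 ganglia. In P90 medullae it was 938, 3965 and 2823, so these markers were not confined to the ganglia. Of 15 tested, 3 were higher at P90 against E8.5 (background 9.57%) and 5 lower at P90 against E13.5 (4.6%). Pnmt, the adrenaline-forming enzyme, reached 633, 3749 and 3289 in P90 medullae and at most 46.1 elsewhere. A neural tube marker in E8.5 embryos, a sensory neuron marker in E13.5 ganglia and Pnmt in P90 medullae were therefore present. Th, the enzyme that starts catecholamine synthesis, was empty on P90 replicate 1. Marker sums of several cell types also changed between the stages. Over 20 of 24 neural crest probe sets, the sum was 6121, 8646 and 7690 in E8.5 embryos, 3389, 3643 and 4007 in E13.5 ganglia, and 4147, 3833 and 3088 in P90 medullae. Of 21 tested crest probe sets, 7 were lower at E13.5 against E8.5 (background 6.98%) and 8 at P90 against E8.5 (11.2%). Over 11 of 16 neural tube probe sets, the sum was 4394, 4077 and 4309 in E8.5 embryos, 921, 964 and 1532 in E13.5 ganglia, and 287, 231 and 193 in P90 medullae. Over 13 of 15 somite probe sets it was 1703, 2409 and 1453 in E8.5 embryos, 1237, 770 and 1189 in E13.5 ganglia, and 553, 357 and 389 in P90 medullae. Of 8 tested somite probe sets, 1 was lower at E13.5 against E8.5 (background 6.98%) and 6 at P90 against E8.5 (11.2%). Over the 15 mesenchyme probe sets the sum was 2006, 3144 and 2620 in E8.5 embryos and 13080, 4150 and 7699 in E13.5 ganglia. The part of these cell types in the Hox results was not tested. In bulk captures such as these, fewer cells of a type and less RNA per cell cannot be told apart.

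At E13.5 against E8.5, 1 Hox probe set was called higher and 5 lower of 33. Those are 3.03% and 15.2%, against a background over all tested probe sets of 7.99% higher and 6.98% lower. At P90 against E8.5, 2 were higher (6.06%, background 9.57%) and 8 lower (24.2%, background 11.2%). At P90 against E13.5, limma called 0 higher (background 2.88%; at an unadjusted p under 0.05 it was 2, and 2020 of all 24012) and 3 lower (9.09%, background 4.6%). Median log2 changes of the tested Hox probe sets were -0.17 at E13.5 against E8.5, -0.14 at P90 against E13.5 and -0.25 at P90 against E8.5, where all tested probe sets had medians of -0.0051, -0.020 and -0.0042. The 3 comparisons share arrays, so they are not independent of each other. Counted by arrays alone, every array of the later stage with a value lay above every such array of the earlier one in 4 of 33 Hox probe sets at E13.5 against E8.5 (background 17.2%), 2 at P90 against E13.5 (10%) and 3 at P90 against E8.5 (19.8%), and below in 6 (17.2%), 7 (12.5%) and 10 (23.2%). In all, 11 probe sets of 10 genes were called in at least 1 comparison and 22 in none. The matching share over all tested probe sets was not computed, so this count is not read against a background.

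**Figure D1:**
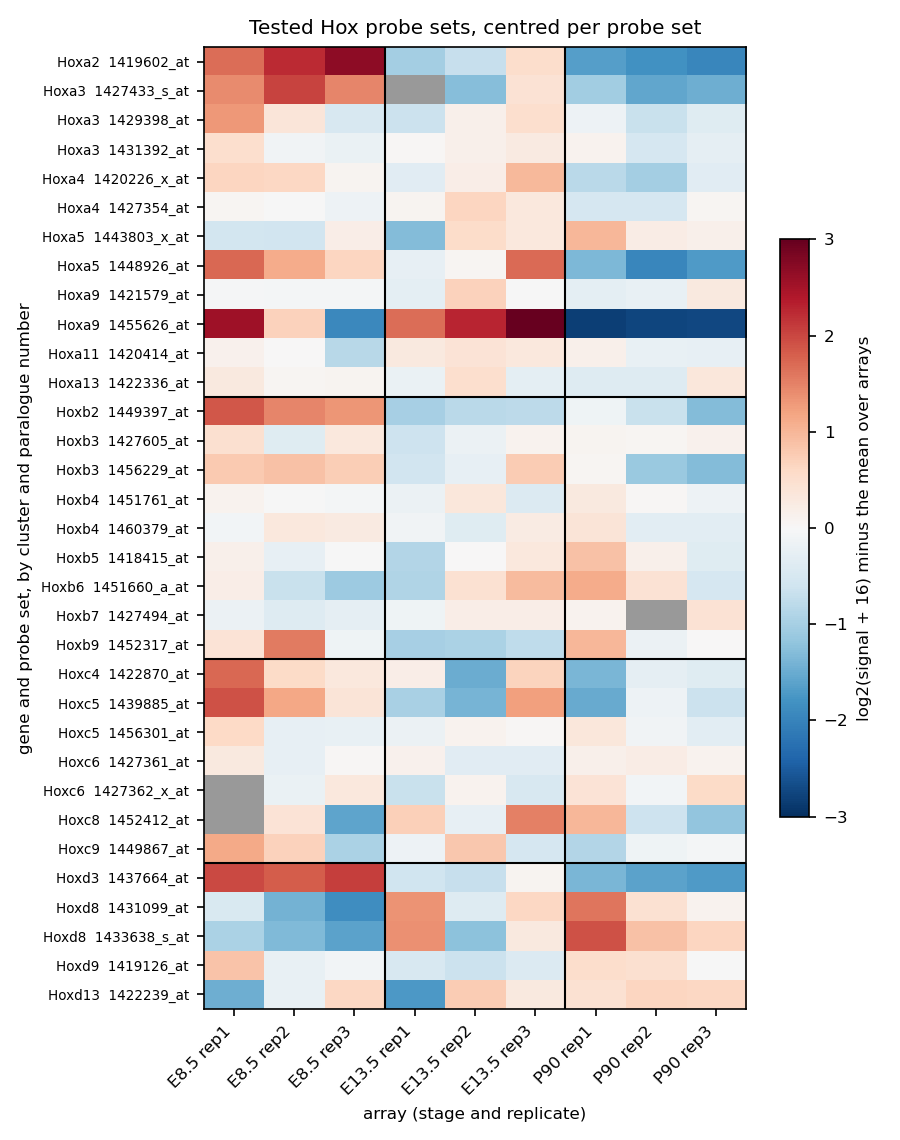
Log2(signal + 16) of the 33 tested Hox probe sets, each minus its mean over arrays, with probe sets down the page by cluster and paralogue number and the 9 arrays across by stage; grey cells are empty in the deposited table. Hoxa2, Hoxa3 1427433_s_at, Hoxb2 and Hoxd3 are above their means on all 3 E8.5 arrays, and Hoxa9 1455626_at is far below its mean on all 3 P90 arrays.

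Against E8.5, the lowest adjusted p-values among the Hox genes belonged to members of paralogue groups 2 and 3. At P90 against E13.5 the lowest was that of Hoxa9 1455626_at (adjusted p = 0.00468). Hoxa2, Hoxa3, Hoxb2 and Hoxd3 were each lower in both later stages than in E8.5 embryos. Hoxa2, the selector gene of the second pharyngeal arch and a regulator of hindbrain identity, had signals of 231, 352 and 488 in E8.5 embryos, 22.7, 32.0 and 96.7 in E13.5 ganglia, and 8.84, 6.08 and 4.20 in P90 medullae. The 3 stages did not overlap on any array. Hoxa2 fell by 2.59 ± 0.40 at E13.5 against E8.5 (adjusted p = 0.00174) and fell by 4.0 ± 0.40 at P90 against E8.5 (adjusted p = 7.3e-05). Its change at P90 against E13.5 missed the threshold (log2 -1.41 ± 0.40, adjusted p = 0.0604). Every P90 value lies below the filter signal of 26.1, so the size of the later differences depends on the constant of 16 added to each signal.

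Hoxd3, which acts with Hoxa3 in forming the upper neck vertebrae, had signals of 463, 411 and 489 in E8.5 embryos, 64.2, 58.4 and 112 in E13.5 ganglia, and 30.4, 23.7 and 21.3 in P90 medullae. Again no array of one stage overlapped another stage, and Hoxd3 was the only Hox probe set called lower in all 3 comparisons. It fell by 2.36 ± 0.29 at E13.5 against E8.5 (adjusted p = 0.000513) and fell by 3.52 ± 0.29 at P90 against E8.5 (adjusted p = 2.25e-05). The fall at P90 against E13.5 was smaller (log2 -1.16 ± 0.29, adjusted p = 0.0369). That call was not made without E8.5 array 2 or 3, E13.5 array 1 or 3, or any P90 array (adjusted p between 0.0518 and 0.18, and 0.0195 to 1 over all alternatives).

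Hoxb2, a hindbrain gene and known target of Egr2 (Krox20), had signals of 310.3, 231 and 207 in E8.5 embryos, 28.8, 35.3 and 35.8 in E13.5 ganglia, and 65.5, 40.4 and 20.3 in P90 medullae. The E8.5 arrays were all higher than the other 6, while E13.5 and P90 overlapped. Hoxb2 fell by 2.41 ± 0.32 at E13.5 against E8.5 (adjusted p = 0.000738) and fell by 2.25 ± 0.32 at P90 against E8.5 (adjusted p = 0.000704), and differed by 0.16 ± 0.32 at P90 against E13.5 (95% interval -0.54 to 0.87).

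Hoxa3, which is needed for the thymus and parathyroid to form, had 4 probe sets. Its brightest, 1427433_s_at, had signals of 278, 431 and 285 in E8.5 embryos, 29.1 and 132 on the 2 E13.5 arrays with a value, and 36.9, 20.9 and 23.5 in P90 medullae. E8.5 lay above all later arrays, and the log2 change was -2.06 ± 0.48 in E13.5 ganglia (adjusted p = 0.0174, with 1 empty E13.5 value) and -3.0 ± 0.43 in P90 medullae (adjusted p = 0.00103), each against E8.5. The E13.5 call was not made without E8.5 array 2 (adjusted p = 0.0701, and 0.0123 to 0.371 over all alternatives). Both other tested probe sets of Hoxa3 were called in no comparison: 1431392_at lay between 33.3 and 82.8 on all arrays, and 1429398_at between 5.43 and 68.7. The fourth, 1452421_at, was not tested and passed 26.1 on 1 array. The _s_at ending marks probes that can match more than 1 transcript, so the gene's call rests on 1 of 3 tested probe sets.

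Hoxb3, also active in the hindbrain, had 2 tested probe sets that differed in outcome. Probe set 1456229_at had signals of 1422, 1517 and 1378 in E8.5 embryos, 551, 696 and 1413 in E13.5 ganglia, and 858, 374 and 326 in P90 medullae. Only P90 was separated from E8.5, with a fall of 1.57 ± 0.47 (adjusted p = 0.0355). This call was not made without any E8.5 array or P90 array 2 or 3 (adjusted p between 0.0896 and 0.133, and 0.00923 to 0.793 over all alternatives). The other, 1427605_at, had 196 ± 58.9 in E8.5 embryos, 147 ± 39.8 in E13.5 ganglia and 184 ± 4.5 in P90 medullae (SD, n = 3 each) and was not called, with a change of -0.048 at P90 against E8.5 (95% interval -0.79 to 0.70).

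The other members of paralogue groups 1 to 3 could not be tested. Hoxd1 had signals of 105, 249.9 and 137 in E8.5 embryos and 2.57, 5.91 and 2.21 in P90 medullae. Of its E13.5 cells, 2 were empty and the third, on replicate 3, was 793. Hoxb1, which specifies a hindbrain segment, was empty on all 3 E8.5 arrays and lay between 5.0 and 18.5 on the other 6. Empty cells made up 16 of the 432 Hox cells (7 in E8.5 embryos, 6 in E13.5 ganglia and 3 in P90 medullae), and 8048 of 405909 (1.98%) in the whole table. They were unevenly spread over marker lists. In E13.5 ganglia 24 cells of the sensory neuron list, 20 of the mesenchyme list and 12 of the Schwann and satellite glia list were empty, with 0 at the other stages. In P90 medullae 14 of the chromaffin list were empty (0 elsewhere) and 27 of the adrenal cortex list, against 0 at E8.5 and 1 at E13.5. In E8.5 embryos 9 of the neural tube list were empty, against 0 and 1 later. Of 14 adrenal cortex probe sets, 2 had a value on every array, so the cortex signal in P90 medullae was not judged here. An empty cell is therefore not read here as a low signal.

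The promoters of Hoxa2 and Hoxd3 are printed because these genes, from different clusters, had the largest falls between E8.5 and P90. Each is the 250 bases before the RefSeq start site on GRCm38.p6, read 5' to 3' on the gene's strand, with capitals marking the letters CCAAT or their complement ATTGG. Hoxa2 is on the minus strand at chr6:52164832-52165081 and Hoxd3 on the plus strand at chr2:74711743-74711992.
Hoxa2: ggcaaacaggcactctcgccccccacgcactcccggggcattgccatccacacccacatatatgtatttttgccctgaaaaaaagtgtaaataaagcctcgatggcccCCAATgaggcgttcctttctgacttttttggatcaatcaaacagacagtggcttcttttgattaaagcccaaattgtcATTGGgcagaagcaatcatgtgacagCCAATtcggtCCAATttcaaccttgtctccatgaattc
Hoxd3: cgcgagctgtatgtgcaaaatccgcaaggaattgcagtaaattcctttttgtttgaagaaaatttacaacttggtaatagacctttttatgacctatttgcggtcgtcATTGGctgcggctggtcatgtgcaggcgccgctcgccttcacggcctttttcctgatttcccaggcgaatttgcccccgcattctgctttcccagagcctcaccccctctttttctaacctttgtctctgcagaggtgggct
The Hoxa2 stretch holds 4 CCAAT matches and the Hoxd3 stretch 1. Hoxa2 also holds 1 match to TGATNNAT, a motif of Pbx-Hox dimers, read as ATCAATCA from position -111 relative to the start site. Promoters of Hoxb2 and Hoxb3 were not used here.

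**Figure D2:**
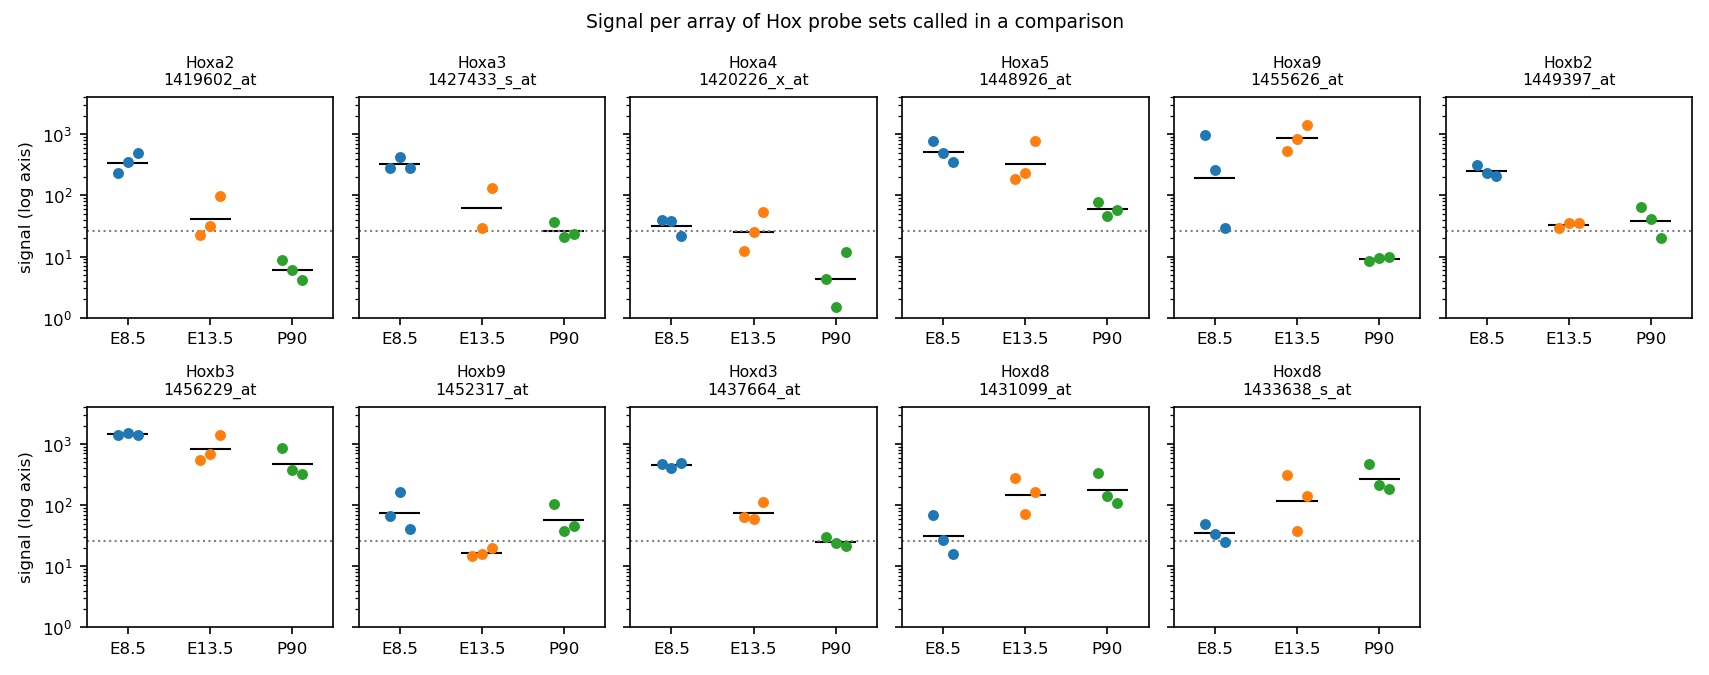
Signal on each array (log axis) of the 11 Hox probe sets called in a comparison, by stage; points are arrays, bars the geometric mean, and the dotted line the filter signal of 26.1. Hoxa2 and Hoxd3 step down at each stage, Hoxa9 1455626_at is below 10.0 on all P90 arrays, and both Hoxd8 probe sets have their lowest mean in E8.5 embryos.

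Among paralogue groups 4 to 8, 4 of the 17 tested probe sets were called in a comparison. Of these 17, 1 was called higher at E13.5 against E8.5 (background 7.99%) and 0 lower (6.98%), 1 lower at P90 against E13.5 (4.6%), and at P90 against E8.5 2 were higher (9.57%) and 2 lower (11.2%). At P90 these shares are close to the backgrounds. The probe sets called higher were both for Hoxd8. Probe set 1431099_at had signals of 67.8, 27.1 and 15.9 in E8.5 embryos, 281, 72.6 and 162 in E13.5 ganglia, and 335, 143 and 109 in P90 medullae. E8.5 lay below all later arrays, while E13.5 and P90 overlapped. Hoxd8 1431099_at rose by 1.78 ± 0.54 in E13.5 ganglia (adjusted p = 0.0468) and 1.97 ± 0.54 in P90 medullae (adjusted p = 0.0234), each against E8.5. The E13.5 call was not made without E8.5 array 2 or 3, E13.5 array 1 or 3, or P90 array 2 or 3 (adjusted p between 0.0548 and 0.178, and 0.00938 to 0.815 over all alternatives). The P90 call was not made without E8.5 array 2 or 3 or P90 array 1 or 2 (adjusted p between 0.0524 and 0.0987, and 0.00417 to 0.419 over all alternatives).

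The second Hoxd8 probe set, 1433638_s_at, had signals of 49.7, 34.3 and 25.2 in E8.5 embryos, 312, 37.6 and 139 in E13.5 ganglia, and 463, 217 and 183 in P90 medullae. P90 lay above E8.5 on every array, and only this difference was called (log2 2.45 ± 0.58, adjusted p = 0.0127). It was not made without E8.5 array 3 (adjusted p = 0.053, and 0.00191 to 0.182 over all alternatives). At E13.5 against E8.5 the same probe set changed by 1.44 ± 0.58 (adjusted p = 0.133), with E13.5 replicate 2 inside the E8.5 range.

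Hoxa5, a regulator of lung and of the neck-to-thorax skeleton, also had 2 probe sets that went apart. Hoxa5 1448926_at had signals of 776, 501 and 358 in E8.5 embryos, 185, 233 and 762 in E13.5 ganglia, and 78.6, 45.6 and 57.5 in P90 medullae. P90 lay below all 6 embryonic arrays. The fall was 2.17 ± 0.51 at P90 against E13.5 (adjusted p = 0.0265) and 2.83 ± 0.51 at P90 against E8.5 (adjusted p = 0.00296). The call against E13.5 was not made without E13.5 array 3 or P90 array 2 or 3 (adjusted p between 0.0913 and 0.108, and 0.0126 to 0.554 over all alternatives). Hoxa5 1443803_x_at, whose ending marks probes that may match other sequences, had 400.4, 393 and 682 in E8.5 embryos, 229.8, 876 and 747 in E13.5 ganglia, and 1199, 693 and 658 in P90 medullae. It was not called, and its change at P90 against E8.5 was 0.76 ± 0.52 (95% interval -0.39 to 1.91).

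Hoxa4, a gene of the neck and upper thorax, fell in 1 of 2 tested probe sets. Hoxa4 1420226_x_at had signals of 39.1, 38.4 and 21.6 in E8.5 embryos, 12.2, 24.8 and 53.3 in E13.5 ganglia, and 4.25, 1.51 and 12 in P90 medullae. These are dim values, and P90 lay below the other stages (log2 -1.17 ± 0.33 against E8.5, adjusted p = 0.028). The call was not made without P90 array 1 or 2 (adjusted p = 0.0588 and 0.109, and 0.0103 to 1 over all alternatives). Hoxa4 1427354_at lay between 12.3 and 47.1 and was not called.

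No cluster B gene of this range was called in any comparison, out of 5 probe sets tested. Backgrounds in either direction were 15% at E13.5 against E8.5, 7.48% at P90 against E13.5 and 20.8% at P90 against E8.5. With 5 probe sets, 0 called is close to these shares. Hoxb4, known from blood stem cells, had 395, 526 and 509.9 in E8.5 embryos, 390.2, 326 and 502 in E13.5 ganglia, and 553, 334 and 338 in P90 medullae on probe set 1460379_at. All 3 stages overlapped, with a change of -0.25 at P90 against E8.5 (95% interval -1.04 to 0.55). Its dimmer probe set, 1451761_at, stayed between 20.5 and 45.5. Hoxb5, which acts in enteric neural crest, averaged 279.6 ± 39.6 in E8.5 embryos, 264 ± 108 in E13.5 ganglia and 359 ± 161 in P90 medullae, and its change at P90 against E8.5 was 0.26 (95% interval -0.69 to 1.21). Hoxb6 averaged 180.3 ± 93.3 in E8.5 embryos, 318 ± 185 in E13.5 ganglia and 351 ± 190.3 in P90 medullae (SD, n = 3 for each value of both genes). Hoxb7 was dim, at 20.5 to 26.5 in E8.5 embryos, 28.3 to 39.6 in E13.5 ganglia, and 35.7 and 49.4 on the 2 P90 arrays with a value. Its E8.5 arrays lay below all later ones, but no difference was called (adjusted p = 0.318 in E13.5 ganglia and 0.148 in P90 medullae, each against E8.5).

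Cluster C was the only cluster with 0 probe sets called in any comparison, out of 7 tested. Backgrounds in either direction were 15% at E13.5 against E8.5, 7.48% at P90 against E13.5 and 20.8% at P90 against E8.5. With 7 probe sets, 0 called is close to these shares and does not set cluster C apart. Hoxc4 had signals of 998, 441 and 365 in E8.5 embryos, 337, 93.0 and 472 in E13.5 ganglia, and 103, 239 and 223 in P90 medullae. P90 lay below E8.5 on every array, and the change of -1.54 ± 0.60 missed the threshold (adjusted p = 0.0954). Hoxc5 1439885_at had 694, 405 and 231 in E8.5 embryos, 80.7, 56.0 and 424 in E13.5 ganglia, and 50.5, 153 and 104 in P90 medullae, with the same separation and a change of -1.92 ± 0.66 at P90 against E8.5 (adjusted p = 0.0626). For both genes the intervals at P90 against E8.5 excluded 0 before adjustment over all probe sets (-2.86 to -0.22 for Hoxc4 and -3.38 to -0.46 for Hoxc5). The other tested Hoxc5 probe set, 1456301_at, lay between 17.7 and 47.5.

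Hoxc6 and Hoxc8, which mark motor neurons of the forelimb level, showed no call either. Hoxc6 1427361_at averaged 157 ± 32.4 in E8.5 embryos, 133 ± 29.1 in E13.5 ganglia and 171 ± 6.43 in P90 medullae (SD, n = 3 each). Hoxc6 1427362_x_at had 1 empty E8.5 value and lay between 33.0 and 101. Hoxc8 had 833 and 198 on the E8.5 arrays with a value, 1029, 522 and 1797 in E13.5 ganglia, and 1261, 401 and 264 in P90 medullae. Replicates of each stage differed by over 3-fold and the stages overlapped, and the change at P90 against E8.5 was 0.32 ± 0.80.

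In paralogue groups 9 to 13, 8 of 17 probe sets were tested and 2 were called, with 1 lower in each comparison (backgrounds 6.98% at E13.5 against E8.5, 4.6% at P90 against E13.5 and 11.2% at P90 against E8.5). Hoxa9, a gene of posterior identity and of blood precursors, gave the largest fall at P90 against E13.5 among the Hox probe sets. On probe set 1455626_at its signals were 985, 261 and 29.2 in E8.5 embryos, 533, 828 and 1431 in E13.5 ganglia, and 8.29, 9.49 and 9.99 in P90 medullae. P90 lay below all 6 embryonic arrays, while the E8.5 arrays differed 33.7-fold from each other. Hoxa9 1455626_at fell by 5.11 ± 0.86 at P90 against E13.5 (adjusted p = 0.00468) and fell by 3.20 ± 0.86 at P90 against E8.5 (adjusted p = 0.0225). The call against E8.5 was not made without E8.5 array 1 or 2 or P90 array 2 or 3 (adjusted p between 0.0644 and 0.078, and 0.00138 to 0.17 over all alternatives). Its change at E13.5 against E8.5 was 1.91 ± 0.86 (adjusted p = 0.179). The other Hoxa9 probe set, 1421579_at, did not follow it: it averaged 95.6 ± 0.69 in E8.5 embryos, 116 ± 49.1 in E13.5 ganglia and 95.2 ± 26.1 in P90 medullae (SD, n = 3 each), with a change of -0.21 ± 0.32 at P90 against E13.5.

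Hoxb9, which patterns the ribs, had signals of 65.3, 165 and 40.1 in E8.5 embryos, 14.6, 15.9 and 20.3 in E13.5 ganglia, and 105, 38.3 and 45.6 in P90 medullae. E13.5 lay below both other stages on every array. Hoxb9 fell by 1.51 ± 0.43 at E13.5 against E8.5 (adjusted p = 0.0354), and its change at P90 against E13.5 was 1.17 ± 0.43 (adjusted p = 0.144). That call was not made without E8.5 array 1 or 2, any E13.5 array or P90 array 3 (adjusted p between 0.0502 and 0.131, and 0.0181 to 1 over all alternatives). Hoxd9, another gene of the thoracic and lumbar levels, was ordered alike, with 118, 46.8 and 53.2 in E8.5 embryos, 36.8, 30.8 and 39.4 in E13.5 ganglia, and 90, 86.3 and 57 in P90 medullae. Its E13.5 arrays were again the lowest, but no difference was called (log2 -0.69 ± 0.32 at E13.5 against E8.5, adjusted p = 0.185).

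Hoxd13, the gene at the end of cluster D that shapes digits, had 2 probe sets at opposite ends of the signal range. Probe set 1422239_at had signals of 400.5, 959 and 1747 in E8.5 embryos, 331, 1922 and 1396 in E13.5 ganglia, and 1555, 1783 and 1747 in P90 medullae, and was not called. Probe set 1440626_at stayed at or below 10.0 on all 9 arrays, so the files do not settle whether Hoxd13 RNA was present. Hoxa11, Hoxa13 and Hoxc9 were tested and not called. Hoxa11 lay between 23.7 and 78.0, Hoxa13 between 14.5 and 40.8, and Hoxc9 between 7.05 and 82.4.

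Promoters of Hoxa9 and Hoxd8 are printed as those of the probe sets that moved in opposite directions at P90 against E8.5, with the same marking. Hoxa9 is on the minus strand at chr6:52227371-52227620 and Hoxd8 on the plus strand at chr2:74704365-74704614 (GRCm38.p6).
Hoxa9: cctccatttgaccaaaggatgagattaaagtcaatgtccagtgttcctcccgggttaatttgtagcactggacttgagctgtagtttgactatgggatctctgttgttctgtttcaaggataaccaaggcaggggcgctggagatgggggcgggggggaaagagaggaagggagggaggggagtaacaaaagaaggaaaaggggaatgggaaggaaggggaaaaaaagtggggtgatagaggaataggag
Hoxd8: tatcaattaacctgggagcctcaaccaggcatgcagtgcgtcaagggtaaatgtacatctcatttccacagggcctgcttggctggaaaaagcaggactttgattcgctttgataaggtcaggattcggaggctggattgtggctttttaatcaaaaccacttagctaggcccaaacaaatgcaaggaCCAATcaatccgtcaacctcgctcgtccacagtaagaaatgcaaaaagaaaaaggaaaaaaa
The Hoxa9 stretch holds 0 CCAAT matches and the Hoxd8 stretch 1. RefSeq promoters of 24 starts of 22 Hox genes could be searched on both strands, beside 32851 promoters of all genes. CCAAT was found in 14 of the 24 (58.3%), against 33.8% of all promoters. TGATNNAT was in 16.7% against 7.7%, with matches in Hoxa2, Hoxb1, Hoxb8 and Hoxd11. TTTATG, the core of caudal (Cdx) sites, was in 20.8% against 10.8%, and TATAAA in 16.7% against 12.4%. These are matches of letters in a window and not binding sites. The Hox promoters were also richer in G and C (median 58.6%, against 52.4%) and in CpG (median 12.5 per 250 bases, against 6).

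**Figure D3:**
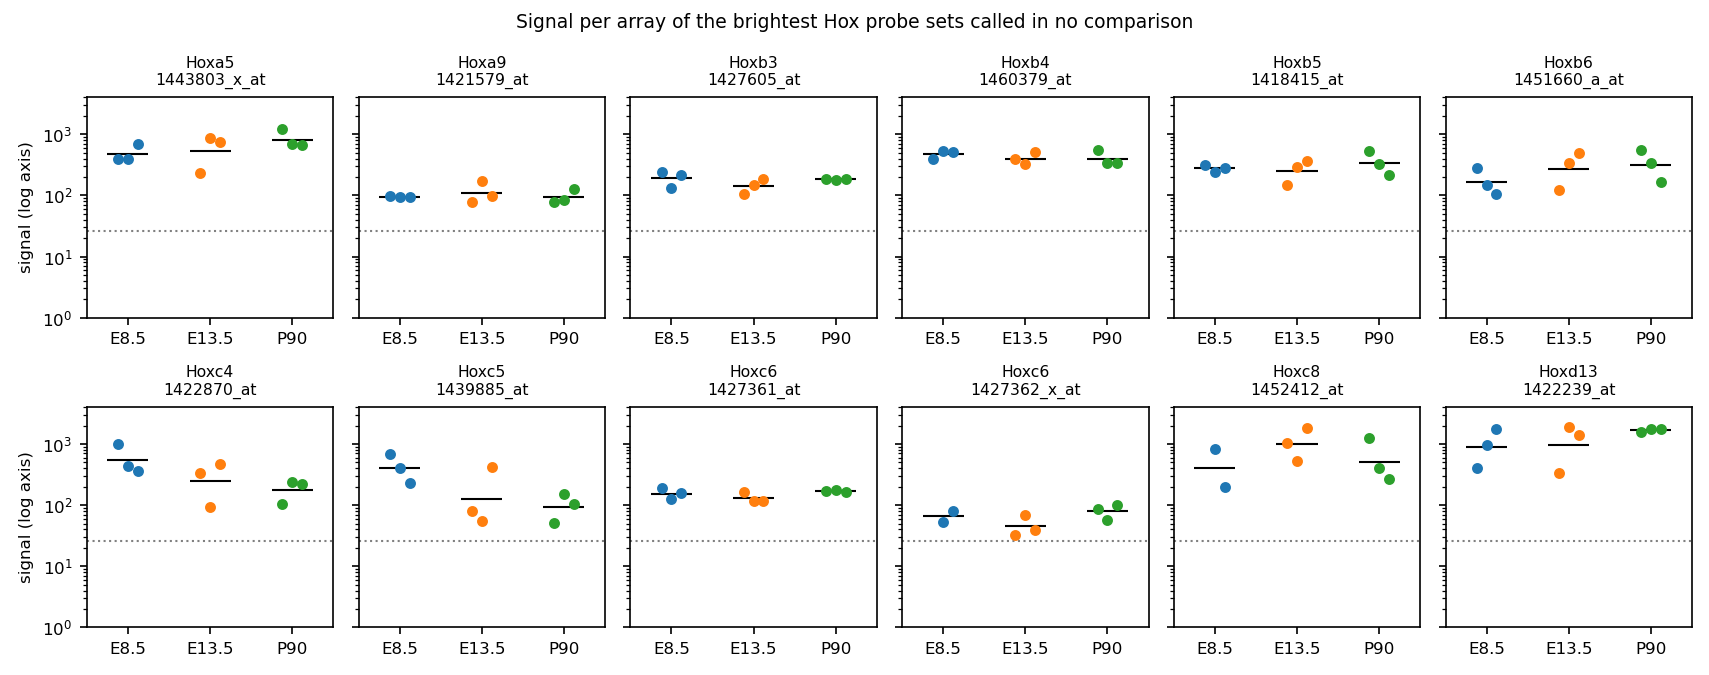
Signal on each array (log axis) of the 12 brightest Hox probe sets that were called in no comparison, by stage; points are arrays, bars the geometric mean, and the dotted line the filter signal of 26.1. Hoxb4, Hoxb5 and Hoxc6 overlap at all 3 stages, and Hoxc4 and Hoxc5 lie lower on the P90 than on the E8.5 arrays.

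The members that failed the filter were mostly genes of high paralogue number. On no array above 26.1 were Hoxa7, both Hoxa10 probe sets, Hoxb1, Hoxb13, Hoxc5 1450832_at, Hoxc6 1427454_at, Hoxc13, Hoxd10, Hoxd11, Hoxd12 and Hoxd13 1440626_at, 12 probe sets in all. Hoxa7 was listed at 1, the lowest value in the table, on the 7 arrays with a value. Hoxc10, a gene of lumbar motor neurons, was not tested and passed on E13.5 replicate 2 only (62.6, with 6.38 and 17.4 on the other E13.5 arrays). Of 17 probe sets in groups 9 to 13, 8 were tested, as were 17 of 20 in groups 4 to 8 and 8 of 11 in groups 1 to 3. A signal under 26.1 is not a proof of absence, since probe sets of the same gene differed widely in signal.

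Ordered by paralogue number, the change after E8.5 was most negative at the low end. At E13.5 against E8.5 the tested probe sets of groups 1 to 3 had a median log2 change of -1.43 with 4 of 8 called lower, groups 4 to 8 a median of -0.091 with 0 of 17 lower, and groups 9 to 13 a median of -0.0042 with 1 of 8 lower (background 6.98% lower). At P90 against E8.5 the medians were -1.91, 0.13 and -0.16, with 5 of 8, 2 of 17 and 1 of 8 called lower (background 11.2%). At P90 against E13.5 they were -0.58, 0.14 and -0.18, with 1 probe set called lower in each group (background 4.6%). Spearman's rho between paralogue number and change over the 33 probe sets was 0.54 at E13.5 against E8.5, 0.51 at P90 against E8.5 and 0.35 at P90 against E13.5. These are descriptions only, since probe sets share arrays, several share a gene, and the first comparisons share the E8.5 arrays.

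**Figure D4:**
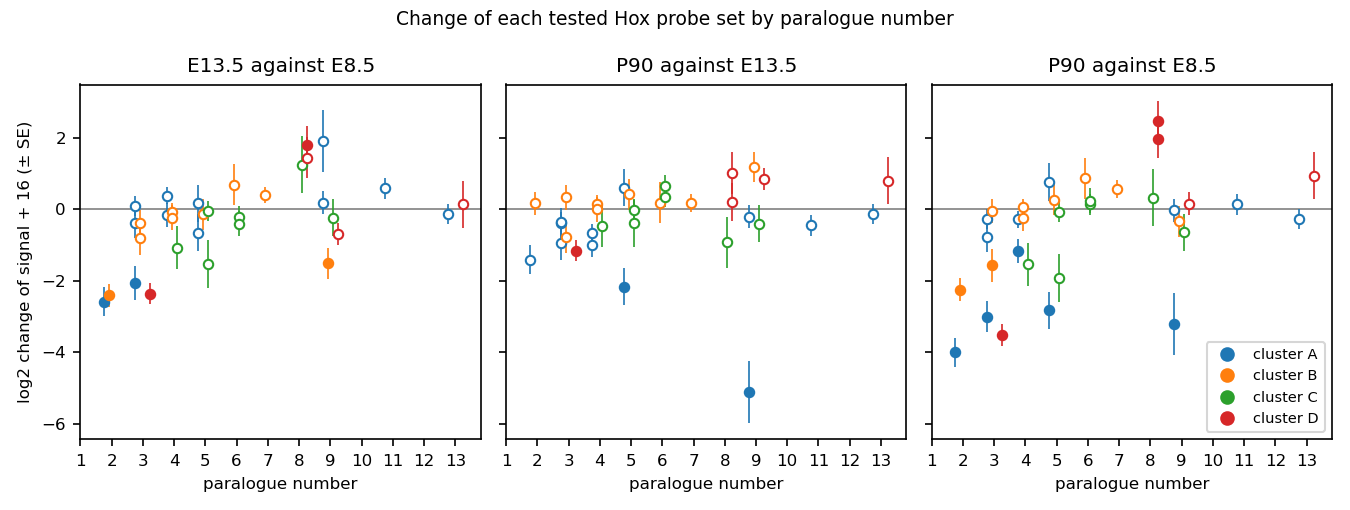
Log2 change of signal plus 16 (points, with bars of 1 SE) of the 33 tested Hox probe sets by paralogue number, in the 3 comparisons; colours give the cluster and filled points were called. The lowest values in E13.5 ganglia and in P90 medullae, each against E8.5, are in groups 2 and 3, with Hoxa9 and Hoxa5 as further low points in P90 medullae.

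By cluster, A and D held calls in all 3 comparisons. Cluster A had 2 of 12 probe sets lower at E13.5 against E8.5 (background 6.98%), 2 lower at P90 against E13.5 (4.6%) and 5 lower at P90 against E8.5 (11.2%). Cluster B had 2, 0 and 2 lower of 9, and cluster D 1, 1 and 1 lower of 5. Cluster D also had Hoxd8 calls in the other direction, 1 at E13.5 (background 7.99%) and 2 at P90 (9.57%), each against E8.5. Within a cluster the low and middle groups could differ: in cluster B the median change at P90 against E8.5 was -1.57 over 3 probe sets of groups 1 to 3 and 0.26 over 5 of groups 4 to 8.

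Replicates of a stage differed in several Hox genes, so individual changes rest on few arrays. A spread of more than 3-fold between the arrays of a stage was seen in 8 of 33 probe sets in E8.5 embryos, 14 in E13.5 ganglia and 7 in P90 medullae. At E8.5, replicate 1 minus replicate 3 had a median log2 difference of 0.10 in groups 1 to 3, 0.55 in groups 4 to 8 (positive in 13 of 15) and 0.74 in groups 9 to 13 (positive in 7 of 8), where all tested probe sets had -0.036. Replicate 1 also had the largest Actb difference between 3' and 5' ends of this stage (log2 4.82, against 2.05 and 2.39 on replicates 2 and 3). Egr2, a hindbrain segment gene, was at 10.9 on E8.5 replicate 1 and at 202 and 293 on replicates 2 and 3 (1427683_at). Myf5, a muscle precursor gene, was at 34.6, 397 and 202 on the same arrays. The part of capture level and of RNA quality in these spreads was not tested.

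On P90 replicate 1, the array with fewer chromaffin and more mesenchyme markers, all 8 probe sets of groups 1 to 3 were higher than on replicate 2 (median log2 difference 0.52, against 0.13 for all tested), as were 12 of 16 in groups 4 to 8 (median 0.56) and 4 of 8 in groups 9 to 13 (median -0.028). Against replicate 3 the median for groups 1 to 3 was 0.34, close to the 0.33 of all tested probe sets, and that for groups 4 to 8 was 0.45. Without this array, 5 Hox probe sets were lower and 1 higher at E13.5 against E8.5, 2 lower at P90 against E13.5, and 7 lower and 1 higher at P90 against E8.5. The calls of Hoxa2, Hoxa3, Hoxd3, Hoxb2, Hoxb3, Hoxa5 and Hoxa9 at P90 against E8.5 were made without it as well. Without E13.5 replicate 2, 2 were higher and 3 lower at E13.5 against E8.5, 3 lower at P90 against E13.5, and 2 higher and 9 lower at P90 against E8.5.

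Hox proteins bind DNA with TALE homeodomain partners, and these fell in part in E13.5 ganglia. Of 16 tested probe sets of 7 TALE genes, 5 were lower and 0 higher at E13.5 against E8.5 (median log2 change -1.36), 1 lower at P90 against E13.5 (median 0.27) and 4 lower at P90 against E8.5 (median -1.20). The backgrounds lower are 6.98%, 4.6% and 11.2%. Meis1, a partner of many Hox proteins, had 215, 228 and 404 in E13.5 ganglia, against 1269.6, 1511 and 1461 in E8.5 embryos, on probe set 1450992_a_at. It fell by 2.31 ± 0.38 there (adjusted p = 0.00221) and fell by 2.85 ± 0.44 on 1443260_at (adjusted p = 0.00174). Pbx2 1418893_at fell by 2.43 ± 0.40 at P90 against E8.5 (adjusted p = 0.00165). Pknox2 1433907_at had 22.9, 12.9 and 32.5 in P90 medullae, against 417, 82.3 and 361 in E13.5 ganglia (log2 -2.73 ± 0.51, adjusted p = 0.00825). Meis2 was uneven in P90 medullae, with 4921, 1020.1 and 472 on 1457632_s_at and the high value on replicate 1.

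Among genes that set up Hox expression, those called were lower. Of 8 tested probe sets of regulators, 3 were lower in E13.5 ganglia (background 6.98%) and 4 in P90 medullae (11.2%), each against E8.5, with median log2 changes of -0.88 and -0.50. At P90 against E13.5 limma called 0 of them (background 7.48% in either direction), with a median of 0.040. Aldh1a2, the enzyme that makes retinoic acid in the trunk, had 246, 628 and 707 in E13.5 ganglia, against 1911, 3425 and 2492 in E8.5 embryos (log2 -2.36 ± 0.45, adjusted p = 0.00507). Cdx1, a caudal factor, fell by 1.63 ± 0.30 (adjusted p = 0.0042) and Rarb, a retinoic acid receptor, fell by 1.03 ± 0.28 (adjusted p = 0.0323) in that comparison. Cdx2 was not tested: probe set 1422075_at had 59.0 and 22.1 on the E8.5 arrays with a value and at most 20.8 later. Nkx1-2, a gene of tail-end progenitors, had 18.3, 36.6 and 22.2 in E13.5 ganglia, against 449, 755 and 542 in E8.5 embryos on 1422050_at (log2 -3.83 ± 0.28, adjusted p = 5.2e-05). In the tail bud list 1 of 4 tested probe sets was lower in E13.5 ganglia and 2 in P90 medullae, each against E8.5 and the same backgrounds (medians -0.57 and -1.10).

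Of 32 probe sets for Polycomb and trithorax proteins, which keep Hox genes silent or active, 4 were lower at E13.5 against E8.5 (background 6.98%). At P90 against E13.5, 1 was higher (2.88%) and 3 lower (4.6%), and at P90 against E8.5, 2 were higher (9.57%) and 6 lower (11.2%). The medians of the 3 comparisons, in this order, were -0.45, 0.013 and -0.36. Ezh2, the Polycomb methyltransferase of dividing cells, had 2038, 2271 and 2226 in E8.5 embryos, 527, 262 and 631 in E13.5 ganglia, and 157, 182 and 93.2 in P90 medullae. No stage overlapped another, and Ezh2 fell by 2.25 ± 0.42 at E13.5 against E8.5 (adjusted p = 0.00445) and fell by 1.57 ± 0.42 at P90 against E13.5 (adjusted p = 0.0442). Cbx2 1434116_at fell by 3.93 ± 0.40 at P90 against E8.5 (adjusted p = 8.3e-05). Ezh1, which takes the place of Ezh2 in resting cells, rose by 1.95 ± 0.36 on 1449023_a_at in that comparison (adjusted p = 0.00315).

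Genes beside the clusters were read in the same way. Of 23 tested probe sets of cluster neighbours, limma called 0 at E13.5 against E8.5 (background 15% in either direction) and 0 at P90 against E13.5 (7.48%), and 2 lower at P90 against E8.5 (background 11.2%, close to that share; medians 0.039, -0.083 and -0.12). Both were for Cbx5, a heterochromatin protein next to cluster C, with changes of -1.41 ± 0.32 (1450416_at, adjusted p = 0.00967) and -1.66 ± 0.35 (1454636_at, adjusted p = 0.00623). Of the head homeobox genes, 4 probe sets were tested, with medians of -0.10 in E13.5 ganglia and -0.091 in P90 medullae, each against E8.5. Emx2 was lower in E13.5 ganglia (log2 -1.39 ± 0.30, adjusted p = 0.00948) and in P90 medullae (log2 -1.81 ± 0.30, adjusted p = 0.0016), each against E8.5. Otx2, which marks the forebrain and midbrain, lay between 1 and 5.16 on the arrays with a value and was not tested.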

How the data were processed

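Biotin-labelled cRNA from 400 ng of total RNA was hybridised to Affymetrix mouse arrays, per the labels' protocols. The authors deposited linear intensities, 1 for each probe set on each array. Tools named in the submitters' processing notes are MAS5, GCOS, RMA and GCRMA; the one that made these values, its version and the reason for empty cells are not given in the sources used here. Gene names come from the platform annotation (34945 probe sets with 1 symbol, 932 with several, 9160 with none, 64 controls); all 48 members matched RefSeq (GRCm38.p6) by Entrez identifier.

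From the deposited intensities, log2(signal + 16) was computed without further scaling, which understates changes of dim genes. Probe sets above the 40th percentile of all values (26.1) on at least 3 of 9 arrays, with at least 2 values per stage, were fitted in limma 3.58.1 (R 4.3.3) over all 9 arrays (two-sided, variance trend, 6 residual degrees of freedom), with Benjamini-Hochberg adjustment over 24012 probe sets. The fit was tested on simulated data. Members and lists were chosen with earlier results of these data known. Named Hox genes were all those called in a comparison, others by range; of other lists, the 1 to 3 largest called changes, plus Otx2, Cdx2, Meis1, Ezh2 and another gene that is not reported here. Markers were named as checks. The p-values measure the spread between arrays, and nothing states how many animals these came from. Deviations of same-numbered arrays of different stages correlated at -0.357 to 0.424 over 9 pairs, 3 above 0.1. At E13.5 against P90 they were 0.424, 0.231 and -0.169 for replicates 1, 2 and 3. With deviations centred over 3 arrays per stage, these values cannot exclude a shared batch. The labels state no pairing, so numbers were not used as pairs in the main fit. The alternatives changed normalization, pseudocount (1 and 64), filter, empty values, probe sets, variance model, arrays fitted, block, minimum change and each array left out.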

Additional observations from a re-analysis of the deposited data

How the results depend on the processing

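Of 19 called changes of Hox probe sets, 9 held under every alternative run for them. At E13.5 against E8.5 these were Hoxa2, Hoxd3 and Hoxb2, and at P90 against E13.5 Hoxa9 1455626_at. At P90 against E8.5 they were Hoxa2, Hoxa3 1427433_s_at, Hoxd3, Hoxb2 and Hoxa5 1448926_at. Hoxa3 was run under 18 of the 22 alternatives and Hoxa5 under 21. Hoxa3 was not fitted where empty values or _s_at probe sets were left out, or without E13.5 array 2 or 3. Of 132 counts over 22 alternatives, 99 equalled the reported count or stayed within 1.5 times it. The 99 include the 0 higher at P90 against E13.5, which was 0 under all 22 alternatives. The 1 higher at E13.5 against E8.5 was 0 under quantile normalization, a pseudocount of 64, no filter, 1 probe set per gene, no variance trend or a required change of at least 2-fold. That last setting also gave 3 lower at E13.5 against E8.5, 1 lower at P90 against E13.5, and 0 higher and 5 lower at P90 against E8.5. Fitting only the arrays compared gave 1 lower at P90 against E13.5. At P90 against E8.5, 1 was higher with 1 probe set per gene or without _x_at and _s_at probe sets. Leaving out each array gave 0 to 2 higher and 3 to 5 lower at E13.5 against E8.5, 0 to 0 higher and 1 to 4 lower at P90 against E13.5, and 0 to 2 higher and 5 to 9 lower at P90 against E8.5. The lowest count of lower calls came without E8.5 replicate 2 or E13.5 replicate 2 in the first comparison, without E13.5 replicate 3 or P90 replicate 2 or 3 in the second, and without E8.5 replicate 1 or 2 or P90 replicate 2 in the third. With the replicate number as a block, 1 was higher and 4 lower at E13.5 against E8.5, 0 higher and 3 lower at P90 against E13.5, and 2 higher and 7 lower at P90 against E8.5.

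With arrays left out in turn, signs turned in 4 changes, none of them called. Hoxa4 1420226_x_at at E13.5 against E8.5 ranged from -0.35 to 0.14 (this value without E13.5 replicate 1). Hoxd8 1431099_at at P90 against E13.5 ranged from -0.27 (without E13.5 replicate 2; -0.25 without P90 replicate 1) to 0.60. Hoxb2 at P90 against E13.5 ranged from -0.12 (without P90 replicate 1) to 0.46, and Hoxb9 at P90 against E8.5 from -0.71 to 0.13 (without E8.5 replicate 2). Over all probe sets, the 3594, 1795 and 4993 calls of the 3 comparisons, in the order above, became 717, 299 and 1130 with a required change of 2-fold, 989 at P90 against E13.5 with only the arrays compared, and as few as 1761, 678 and 2811 with 1 array left out. The causes were not tested. Probe sets near a signal of 26.1 carry changes that depend on the added constant.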

Other observations

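Antisense transcripts of the Hox clusters were also on the array and were chosen here after their values were seen. Hoxd3os1 1460056_at, antisense to Hoxd3, had signals of 2434, 408 and 59.8 at E8.5, 299.4, 546 and 924 at E13.5, and 557, 661 and 409 at P90. Its E8.5 arrays spanned more than the other 6 together, and no difference was called (log2 0.36 ± 0.97 at P90 against E8.5, adjusted p = 0.838). Its other probe set, 1430263_at, stayed between 50.3 and 101 and was not called. Hoxb5os was empty on all 3 E8.5 arrays, had 130.3, 167 and 227 at E13.5 and 627, 272 and 179 at P90, and was not tested. Both Hoxa11os probe sets were at or below 18.1 on every array.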
